A study of Homo sapiens with 12 samples.

Results

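In HCT116 cells, a human colon cancer line, 12 h of treatment with ICG-001 was compared directly with 12 h of treatment with C646. Each drug was given at 10 uM, and for every row of the expression table the signal with ICG-001 was divided by the signal with C646. A row was kept when it was above the detection limit in at least 1 of the 2 columns, which left 16991 of 34687 rows, or 49.0%. Of the rows kept, 14141 were above the limit in both columns, 1369 with ICG-001 only and 1481 with C646 only. The limits were signals of 144.2 with ICG-001 and 143.7 with C646. The last row kept was HAR1B at 140 and 143.674 (ICG-001 and C646), and the nearest row left out was RC3H1 at 144 and 143.673.

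The series measured HCT116 and the pancreatic line PANC1 treated with DMSO or either drug for 12 h or for 96 h on Illumina HumanHT-12 BeadChips, in which labelled RNA binds to gene-specific probes on beads and its brightness is read. The DMSO column of HCT116 cells at 12 h, the solvent control at 0.05%, is given beside both drugs, and the same drug ratio in HCT116 cells at 96 h and in PANC1 cells at 12 h is set beside it below. Each column used here is the authors' mean of 2 arrays, except ICG-001 in PANC1 cells at 12 h, a mean of 3 arrays. With 1 column per group there is no replicate check, so every difference is a size, and no test was run.

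ICG-001 is a small molecule described as blocking the binding of β-catenin to the co-activator CBP (CREBBP), and C646 as inhibiting the acetyltransferase activity of both CBP and its relative p300 (EP300). In the WNT pathway, β-catenin that escapes destruction enters the nucleus, binds TCF factors at target genes and brings in CBP or p300, which acetylate histones. HCT116 cells carry a stabilised β-catenin, so this pathway is active in them without added ligand. The direct ratio asks where the transcriptomes under the 2 drugs differ at the same dose and time, and it does not use the control.

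The epithelial markers fixed for the label check were all above the limit, with EPCAM at 7587 with ICG-001 and 6553 with C646, and KRT19 at 9041 and 8481. Of 5 colon markers only CDX2 was above it, at 445 with ICG-001 and 452 with C646, while CDX1, VIL1, CDH17 and LGALS4 were not. Of 14 fibroblast, leukocyte and endothelial markers, COL1A1 was above the limit in both columns at 173 and 183, and LYZ was just above it with ICG-001 at 148. The other 12 were at background, and none of these markers differed by 1.5-fold between the drugs.

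The columns were close to each other for most rows. The median log2 ratio of ICG-001 over C646 was -0.0021, its interquartile range ran from -0.15 to 0.15, and 93.7% of rows were within 1.5-fold. The signals were at least 1.5-fold apart in 1071 rows (6.30% of those kept). Of these, 589 rows (3.47%) were higher with ICG-001 and 482 (2.84%) were higher with C646. The balance tilted towards ICG-001 at larger sizes: at 2-fold or more (216 rows, 1.27%) there were 157 rows (0.924%) against 59 (0.347%), and at 4-fold or more there were 11 against 1. At 1.2-fold the balance turned, with 2302 rows higher with ICG-001 and 2489 higher with C646. With a normexp background correction, which models and removes the background left in the signal, 2899 rows were at least 1.5-fold apart, 1470 and 1429. The rows on either side of the 1.5-fold line were PPFIBP1 at 1.5006-fold and PVR at 1.49997-fold higher with ICG-001, and LOC652826 at 1.50012-fold and HSPC159 (LGALSL) at 1.49957-fold higher with C646.

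**Figure D1:**
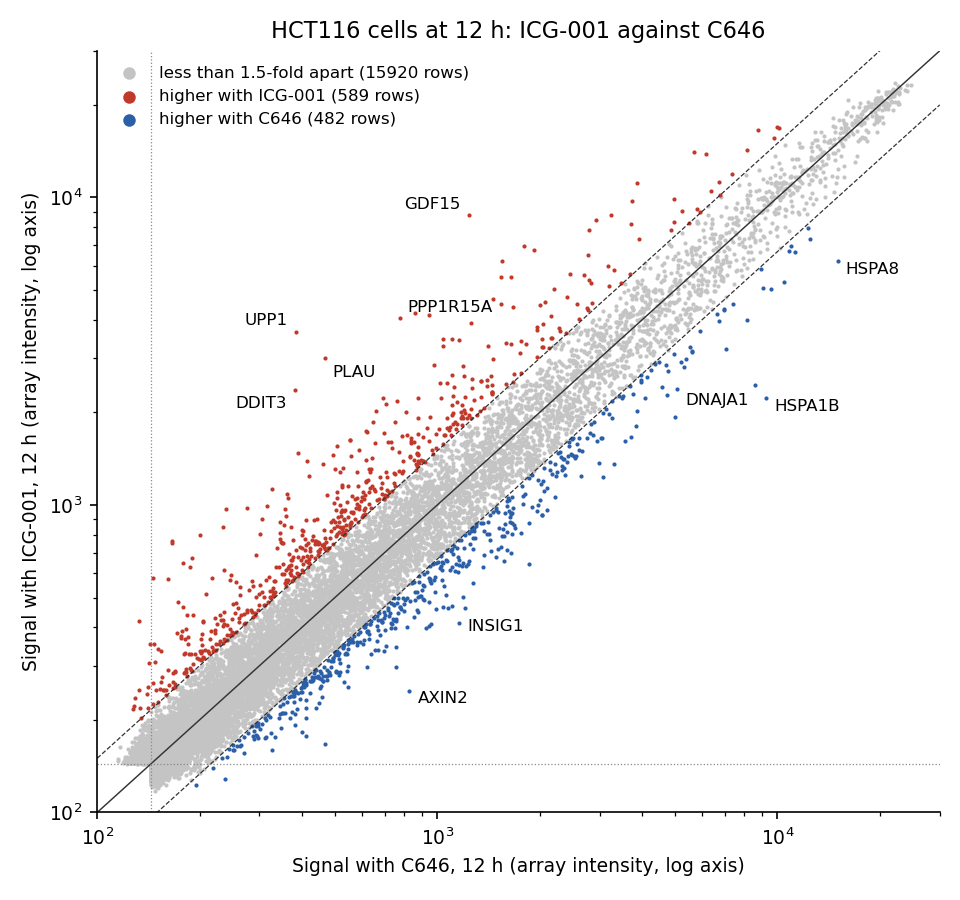
Signal of each of the 16991 rows kept with C646 (x axis) and with ICG-001 (y axis), array intensity on log axes, HCT116 cells at 12 h. The solid line marks equal signals, dashed lines a ratio of 1.5, and dotted lines the detection limits; the 589 red rows lie above the band and the 482 blue rows below it, and the rows farthest out are named.

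The share of rows that differed varied with brightness. Among rows whose brighter signal was under 200, 1 of 6497 was at least 1.5-fold apart, against 17.2% of the 1461 rows at 1000 to 2000, 16.7% of the 990 rows at 2000 to 5000 and 9.38% of the 736 rows above 5000. Background was left in the signal, so the ratio of a dim row understates the difference. For 210 genes with 2 rows kept, the 2 log2 ratios differed by a median of 0.14. In 26 of the 28 such pairs with at least 1 row past 1.5-fold, both rows had the same sign, and the 10 pairs with both rows past it all went the same way.

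The rows farthest apart on the ICG-001 side were led by UPP1, uridine phosphorylase, at 3665 with ICG-001, 383 with C646 and 261 with DMSO, a log2 ratio between the drugs of 3.26. GDF15, a secreted stress cytokine, was at 8740, 1242 and 2607 in the same order, a log2 ratio of 2.81. PLAU, the urokinase plasminogen activator, was at 2994, 466 and 624, a log2 ratio of 2.68. In all 3 genes the C646 and DMSO columns were both far below ICG-001. DDIT3, which encodes the stress factor CHOP, was at 2373, 383 and 414, a log2 ratio of 2.63. PPP1R15A, the phosphatase subunit that reverses eIF2α phosphorylation, was at 4059, 774 and 690, a log2 ratio of 2.39. MAP1LC3B, a coat protein of autophagosomes, was at 4213, 858 and 1052, a log2 ratio of 2.30. Again the column that stood alone was ICG-001.

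The remaining 6 places on this side went to rows of varied function. SPRR2D, a small proline-rich protein of the cornified envelope, was at 762 with ICG-001, 166 with C646 and 141 with DMSO, the last of these under the limit. The keratin KRT80 was at 752, 165 and 160, and VGF, a secreted neuropeptide precursor, at 4153, 946 and 1049. In both, C646 and DMSO were close together and ICG-001 was high. NIBAN1, listed under its older name FAM129A, was at 968, 239 and 225, and the long noncoding RNA EPB41L4A-AS1, listed as TIGA1, at 6231, 1547 and 2060. LCN2, the iron-chelator-binding lipocalin 2, was at 578, 145 and 151. The log2 ratios of these 6 rows ran from 1.99 (LCN2) to 2.20 (SPRR2D). SPRR2 genes are close copies of each other, so a probe for one may read another.

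On the C646 side the 2 rows farthest apart in the deposited signals were chaperones. HSPA1B, an inducible HSP70, was at 2223 with ICG-001, 9247 with C646 and 5665 with DMSO, a log2 ratio of -2.06. DNAJA1, an HSP40 co-chaperone, was at 2462, 8583 and 6287, a log2 ratio of -1.80. AXIN2, a feedback inhibitor of WNT signalling, followed at 249, 827 and 766, a log2 ratio of -1.73. For the chaperones DMSO lay between the drugs, and for AXIN2 it lay close to C646. TMSB15A, an actin-binding thymosin, was at 642, 1863 and 2428, a log2 ratio of -1.54. KRT6A was the exception among these rows: it was at 166 with ICG-001 and 157 with DMSO but at 469 with C646, a log2 ratio of -1.49, so here C646 was the column that stood apart. INSIG1, which holds the sterol sensor in the endoplasmic reticulum, was at 413, 1156 and 1109, a log2 ratio of -1.49.

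The last 6 places went to genes with log2 ratios between -1.38 and -1.25. CRYZ, a quinone reductase, was at 463 with ICG-001, 1208 with C646 and 1376 with DMSO. The growth factor receptor FGFR3 was at 297, 758 and 562, and GINS2, a subunit of the replicative helicase, at 1237, 3071 and 2608. All 3 were lowest with ICG-001. HSPA8, the constitutive HSC70, was at 6191, 15016 and 10606. The mismatch repair gene MSH6 was at 1361, 3298 and 2368, and CA2, a carbonic anhydrase, at 659, 1567 and 1574. ICG-001 was the lowest column in these as well. HSPA1A, the near-identical copy of HSPA1B, was under the limit in both columns although HSPA1B was bright, so the split of signal between the copies is uncertain, and the same holds for KRT6A and its close relatives.

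The order of the rows named here depended on the background. With normexp the log2 ratio of KRT6A was -2.38 and that of AXIN2 was -2.26, both past HSPA1B at -2.12 and DNAJA1 at -1.86. On the ICG-001 side UPP1 still led at 3.62, but LCN2 at 3.27, SPRR2D at 3.23 and KRT80 at 3.22 came before GDF15 at 2.91.

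**Figure D2:**
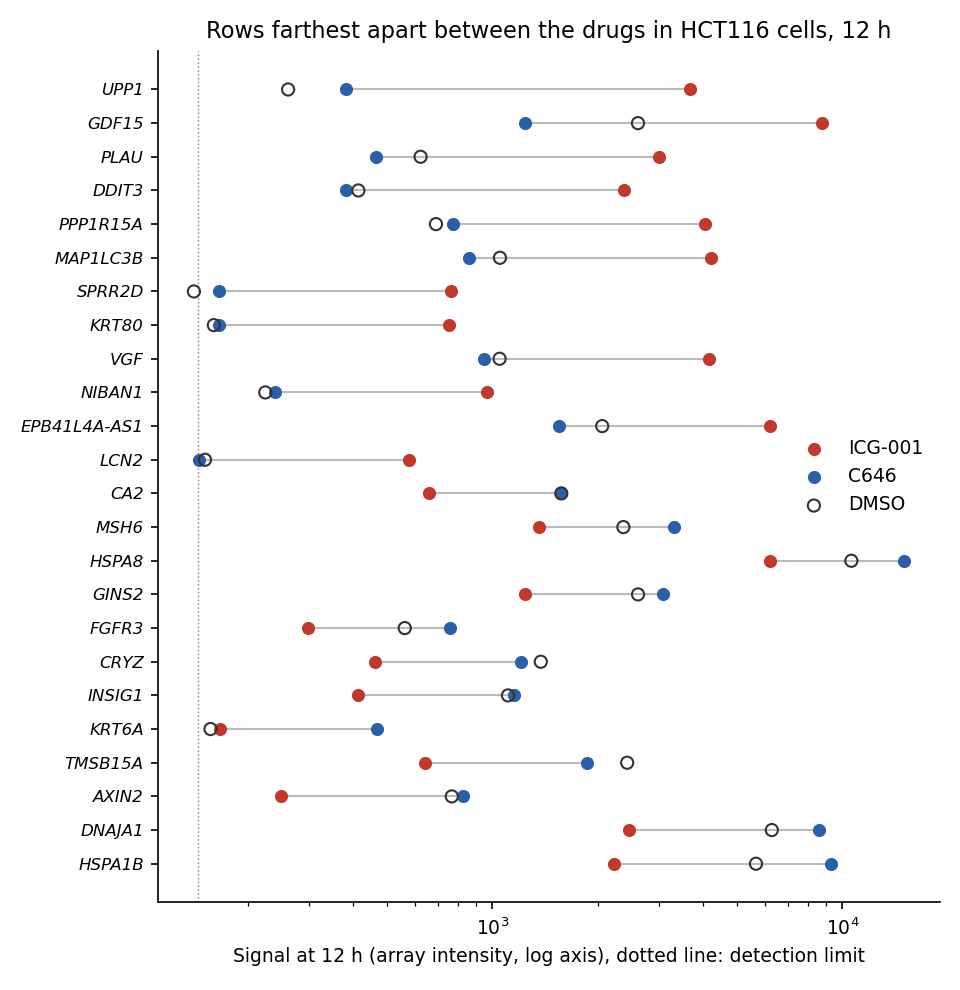
Signal at 12 h in HCT116 cells (array intensity, log axis) of the 12 rows farthest apart in each direction, with ICG-001 in red, C646 in blue and DMSO as open circles; each point is 1 column, the authors' mean of 2 arrays. UPP1, at 3665 with ICG-001 and 383 with C646, is at the top and HSPA1B, at 2223 and 9247, at the bottom, and for most rows the DMSO circle is nearer to C646.

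For rows above the limit in only 1 column the ratio is a lower bound, taken against the limit of the dimmer column. With ICG-001 the 4 largest bounds were SPRR2F at least 2.92-fold higher (a log2 ratio of 3.12 with normexp), the hexokinase-like gene HKDC1 at least 2.45-fold, the adhesion receptor ADGRF1 (listed as GPR110) at least 2.12-fold and C1orf116 at least 1.78-fold. With C646 they were smaller. The sphingosine-1-phosphate receptor S1PR5 was at least 1.64-fold higher (a log2 ratio of -2.14 with normexp), RPRML at least 1.52-fold, the fatty acid elongase ELOVL3 at least 1.43-fold and the atypical E2F repressor E2F8 at least 1.39-fold. Of all rows above the limit in 1 column, the bound was at least 1.5-fold in 11 with ICG-001 and in 2 with C646. The count of 1071 uses measured ratios, by which 12 and 3 of these rows were that far apart.

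The genes the drugs are described as acting on were near a ratio of 1. CREBBP was at 587 with ICG-001, 493 with C646 and 502 with DMSO, a log2 ratio of 0.25. EP300 was dim, at 171, 164 and 193, a log2 ratio of 0.06. CTNNB1, which encodes β-catenin, was at 400, 367 and 611, and TCF7L2, the main TCF factor of intestinal cells, at 271, 333 and 596. For the latter pair both drug columns were below DMSO, and the log2 ratios between the drugs were 0.12 and -0.30. Among 13 members of the β-catenin and destruction complexes above the limit, BCL9L, a β-catenin cofactor, was the 1 member past 1.5-fold, at 328 with ICG-001 and 187 with C646. Among 11 histone acetyltransferases above the limit, KAT8 (listed as MYST1) was the 1 member past it, at 291 and 440.

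WNT target genes went both ways. Of 26 targets above the limit, 5 were at least 1.5-fold higher with ICG-001 and 4 higher with C646. Over all rows kept the shares were 3.47% and 2.84%, so this list was above them in both directions. The same shares apply beside every list count given here. The median log2 ratio of the targets was -0.04, against -0.0021 over all rows kept. Higher with C646 were AXIN2, the transcriptional regulator ID2 (956 with ICG-001, 1967 with C646, log2 ratio -1.04), the ligand BMP4 (790 and 1553, -0.98) and the homeobox factor IRX3 (211 and 349, -0.73). Higher with ICG-001 were FOSL1 (860 and 355, 1.28) and JUN (820 and 403, 1.02), which are AP-1 subunits, SOX9 (722 and 399, 0.85) and KLF5 (662 and 396, 0.74), which are transcription factors, and PLAUR (567 and 374, 0.60), the receptor for urokinase. The best known targets were within 1.5-fold: MYC was at 4164 with ICG-001 and 3623 with C646, and CCND1 at 8282 and 5857. Of 7 feedback targets above the limit AXIN2 was the 1 past 1.5-fold, and NKD2, ZNRF3 and RNF43 had log2 ratios of -0.45, -0.12 and 0.14. A further 10 targets, the stem cell receptor LGR5 among them, were under the limit in both columns.

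The stress genes downstream of ATF4 had the highest median of the 29 lists. ATF4 is a transcription factor translated when eIF2α is phosphorylated, and it turns on genes for stress responses and for the making, import and loading of amino acids. Of 17 regulators and effectors above the limit, 12 were at least 1.5-fold higher with ICG-001 and 0 higher with C646 (3.47% and 2.84% of all rows kept), with a median log2 ratio of 1.26. ATF4 itself was at 5569 with ICG-001, 4672 with C646 and 4374 with DMSO, a log2 ratio of 0.25. Its partner factors were farther apart, with CEBPB at 5620, 2456 and 2716 and CEBPG at 2648, 1101 and 1230. ATF3, a stress-induced repressor, was at 590, 247 and 273. Among the effectors, TRIB3, a pseudokinase that restrains ATF4, was at 6949, 1795 and 1381, and DDIT4, an inhibitor of mTORC1, at 11105, 3866 and 5060. The hormone FGF19 was at 1473, 390 and 460. In each of these ICG-001 was the high column, as it was in SESN2, STC2 and CHAC1, whose log2 ratios were 1.26, 1.13 and 1.12. ATF5, JDP2, EIF4EBP1 and NUPR1 were within 1.5-fold.

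Amino acid genes followed in the same direction. Of 18 synthesis genes above the limit, 9 were higher with ICG-001 and 1 higher with C646, with a median log2 ratio of 0.58. GOT1, the aspartate aminotransferase, was at 8777 with ICG-001 and 3239 with C646. MTHFD2, of the mitochondrial folate cycle, was at 4755 and 2401, and ASNS, asparagine synthetase, at 5375 and 2795. The serine pathway genes PHGDH (10510 and 6372), PSAT1 (2541 and 1398) and PSPH (760 and 469) were all past 1.5-fold, and the cytosolic SHMT1, at 291 and 474, was the member higher with C646. Of 12 transporters above the limit 6 were higher with ICG-001 and 0 with C646. They included both chains of the leucine carrier, SLC7A5 at 13802 and 6170 and SLC3A2 at 3296 and 1042, the cationic carrier SLC7A1 at 3297 and 1406, and the glutamine carriers SLC1A5, SLC38A1 and SLC38A2 with log2 ratios of 0.72, 0.78 and 0.69. Of 20 cytosolic tRNA synthetases 16 had a uniquely named row, and of the 15 above the limit 6 were higher with ICG-001, led by WARS1 (2487 and 1066) and LARS1 (2234 and 1024), and 0 with C646. Rows listed as MARS (2982 and 1459) and GARS (7344 and 3914) were also higher with ICG-001 but are not in these counts, since each name is an older symbol of several genes. RARS1, at 3410 and 4883, was the lowest at -0.52.

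Promoters are shown for ASNS and CEBPG because both genes were higher with ICG-001 and their promoters hold the letters of the C/EBP-ATF response element, TGATGNAA, which ATF4 binds in complex with C/EBP proteins. The sequences are from RefSeq on GRCh38.p14, run from 250 bases before to 50 bases after an annotated start, and are written 5′ to 3′ along the gene with the matching letters in capitals. ASNS lies on the minus strand at chr7:97872359-97872658, with the match beginning at -68 from the start site, and CEBPG on the plus strand at chr19:33373863-33374162, with the match at -42.
ASNS: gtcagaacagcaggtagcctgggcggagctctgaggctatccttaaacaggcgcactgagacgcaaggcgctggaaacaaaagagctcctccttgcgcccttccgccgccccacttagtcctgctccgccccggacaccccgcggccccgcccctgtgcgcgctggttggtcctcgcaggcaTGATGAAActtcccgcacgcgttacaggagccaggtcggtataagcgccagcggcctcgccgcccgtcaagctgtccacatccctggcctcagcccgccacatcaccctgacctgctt
CEBPG: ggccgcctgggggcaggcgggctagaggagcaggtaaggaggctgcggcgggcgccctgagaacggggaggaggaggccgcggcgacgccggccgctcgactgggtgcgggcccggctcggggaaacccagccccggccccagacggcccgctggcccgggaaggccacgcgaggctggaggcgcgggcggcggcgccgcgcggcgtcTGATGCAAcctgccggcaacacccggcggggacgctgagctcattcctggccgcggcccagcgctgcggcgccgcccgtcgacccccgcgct
Searched on both strands, TGATGNAA was in 3.62% of all 35116 promoters of this length and in at least 1 promoter of 4.46% of 27305 genes. It was in 5 of the 16 ATF4 regulators with a promoter in the table, 3 of 11 amino acid synthesis genes, 5 of 12 transporters and 7 of 16 tRNA synthetases. Among members past 1.5-fold it was in 3 of 11, 3 of 7, 4 of 6 and 3 of 4, in the same order. The counts before these take every list gene with a promoter, with or without a uniquely named row. MARS1 and GARS1 hold the letters but, lacking such a row, are not among the members past 1.5-fold. None of the motifs searched contains another. A match describes the letters in this window and is not a binding site.

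Chaperones of the heat shock response had the lowest median of the lists. These proteins refold damaged proteins, and their genes are turned on by the factor HSF1. Of 18 members above the limit, 12 were at least 1.5-fold higher with C646, 0 were higher with ICG-001, and all 18 had a log2 ratio below 0, with a median of -0.82. After HSPA1B, DNAJA1 and HSPA8, the largest ratios were in HSPE1, the mitochondrial HSP10, at 3997 with ICG-001, 8135 with C646 and 7775 with DMSO. FKBP4, an HSP90 co-chaperone, was at 988, 1899 and 1385, and HSPH1, an HSP70 exchange factor, at 2802, 5326 and 5053. ICG-001 was the low column in all of them. BAG3 (1136, 2097 and 1437), CHORDC1 (648, 1193 and 1032) and STIP1 (1493, 2660 and 3036) were also past 1.5-fold, as were HSPA4L, HSP90AA1 and HSPB1 at log2 ratios of -0.80, -0.66 and -0.63. The members within 1.5-fold were DNAJB4, DNAJB1, HSP90AB1, HSPD1, HSPA4 and HSPA6, from -0.56 to -0.24. Among ER chaperones, a separate set that works in the secretory pathway, 4 of 18 were higher with ICG-001 and 1 with C646, with a median of 0.11. XBP1 was at 4574 and 2079 and SDF2L1 at 1652 and 3047.

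The promoters of DNAJA1 and HSPA8 are shown because both genes were among the 12 farthest on the C646 side and each holds 2 copies of GAANNTTC, the core of the heat shock element, which reads the same on both strands. The copies are in capitals. DNAJA1 is on the plus strand at chr9:33025023-33025322, with matches starting at -198 and at 4 bases into the transcript. HSPA8 is on the minus strand at chr11:123062087-123062386, with matches at -230 and -50.
DNAJA1: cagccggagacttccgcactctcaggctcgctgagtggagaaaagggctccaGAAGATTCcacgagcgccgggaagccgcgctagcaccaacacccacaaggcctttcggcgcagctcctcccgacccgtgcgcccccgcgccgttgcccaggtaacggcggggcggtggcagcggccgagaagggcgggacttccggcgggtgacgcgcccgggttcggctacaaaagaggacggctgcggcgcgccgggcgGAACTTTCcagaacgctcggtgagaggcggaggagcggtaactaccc
HSPA8: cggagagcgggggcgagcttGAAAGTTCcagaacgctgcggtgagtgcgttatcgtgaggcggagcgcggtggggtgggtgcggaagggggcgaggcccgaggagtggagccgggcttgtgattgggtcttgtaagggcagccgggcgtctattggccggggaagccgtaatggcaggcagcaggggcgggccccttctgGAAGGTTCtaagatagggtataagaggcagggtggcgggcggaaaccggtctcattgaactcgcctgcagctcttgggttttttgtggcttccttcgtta
GAANNTTC was in 6.77% of all promoters, in 8.21% of genes, and in 11 of 18 heat shock chaperone genes with a promoter in the table. Among the chaperone genes past 1.5-fold it was in 6 of 11, so the letters were not limited to those that differed.

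Genes of cholesterol synthesis were lower with ICG-001. The pathway builds cholesterol from acetyl-CoA through mevalonate and lanosterol, and its genes are turned on by SREBP factors when sterols in the endoplasmic reticulum are low. Of 22 enzymes, all above the limit, 13 were at least 1.5-fold higher with C646 and 0 higher with ICG-001, with a median log2 ratio of -0.64. In the early part of the pathway, up to lanosterol, it was 8 of 12. IDI1, the isopentenyl isomerase, was at 503 with ICG-001, 1186 with C646 and 1139 with DMSO. HMGCS1, HMG-CoA synthase, was at 699, 1648 and 1431, and ACAT2, which starts the pathway, at 411, 956 and 978. In these the C646 and DMSO columns were close together and ICG-001 was low. FDFT1, squalene synthase, was at 1802 and 3843 with the 2 drugs, and FDPS, which makes farnesyl diphosphate, at 511 and 1064. In the late part, 5 of 10 were past 1.5-fold, among them EBP at 610 and 1128 and DHCR7 at 426 and 754. CYP51A1, SC5D, GGPS1 and TM7SF2 had log2 ratios above 0, the highest being 0.24.

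The sterol sensing and transport genes were less uniform. Of 15 above the limit, 2 were at least 1.5-fold higher with C646, among them INSIG1 with its log2 ratio of -1.49. The 1 higher with ICG-001 was the lysosomal cholesterol carrier NPC1, at 1111 and 654. Of 7 uptake or transport genes above the limit, 6 had a log2 ratio below 0, with a median of -0.29. Of 8 sensors or regulators, 6 were above 0, with a median of 0.14. SREBF1 and SREBF2, the SREBP genes, were at log2 ratios of 0.39 and 0.26. The median of the 15 above the limit was -0.03. Of 12 fatty acid synthesis genes above the limit, 2 were higher with C646, LPIN1 (575 and 953) and ELOVL5 (825 and 1258), with a median of -0.28. FASN, at 9249 and 10078, and SCD, at 9387 and 11020, were within 1.5-fold. The letters TCACNCCAC of one form of the sterol regulatory element were in 1.13% of all promoters and 1.39% of all genes, in 0 of 17 cholesterol synthesis genes with a promoter in the table and in 1 of 13 sterol sensing and transport genes, which says only that these letters are not in those windows.

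DNA replication genes formed another group that was low with ICG-001. They are turned on by E2F factors as cells pass from G1 into S phase. Of 42 S phase genes above the limit, 23 were at least 1.5-fold higher with C646, 0 were higher with ICG-001, 41 had a log2 ratio below 0, and the median was -0.65. Of 21 licensing genes, 13 of which are not in the S phase list, 11 were higher with C646 and 0 with ICG-001. The MCM helicase subunits MCM4 (557 with ICG-001 and 1276 with C646), MCM5 (731 and 1535), MCM3 (2423 and 4571), MCM6 (2978 and 5372) and MCM2 (781 and 1292) were past 1.5-fold, whereas MCM7, at 3065 and 3666, was not. FEN1, the flap nuclease, was at 1368, 2989 and 2176 (ICG-001, C646 and DMSO), and UHRF1, which maintains DNA methylation, at 931, 2032 and 1885. TYMS, thymidylate synthase, was at 2380, 5067 and 5216. ICG-001 was the low column in each. The origin recognition genes ORC2 to ORC6 lay between 0.02 and 0.09, and ORC1, which is cell cycle regulated, was at 181 and 324.

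The G2/M genes act later in the cycle, in mitosis. Of 51 above the limit, 4 were higher with C646 (TUBB4B, NUSAP1, TTK and TACC3) and 0 with ICG-001, with a median of -0.14. CCNB1 was at 1608 and 1423. Of 7 cyclins above the limit, the G1 and S cyclins CCND3 (871 and 1857), CCNE2 (357 and 566) and CCNE1 (366 and 561) were higher with C646. E2F2, at 792 and 1570, was the 1 E2F or pocket protein gene past 1.5-fold. CDKN1A, the p21 inhibitor of cyclin-dependent kinases, was at 3890 with ICG-001, 2042 with C646 and 1864 with DMSO, a log2 ratio of 0.93. CDKN1B, at 720 and 613, was within 1.5-fold.

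Glycolysis and hypoxia genes leaned towards C646. Of 19 glycolytic genes, all above the limit, 7 were higher with C646 and 1 with ICG-001, with a median of -0.27. PGAM1 was at 1667 with ICG-001, 3708 with C646 and 3272 with DMSO, and ALDOC at 1058, 2225 and 1662. TPI1 was at 5041, 9573 and 9680, and LDHA, lactate dehydrogenase A, at 6651, 11240 and 12798. PFKM, ENO2 and ALDOA were the others. The exception was the glucose carrier SLC2A3, at 847 with ICG-001, 235 with C646 and 642 with DMSO, a log2 ratio of 1.85, where C646 was the low column. GAPDH was at 11646 and 11232. Of 20 hypoxia targets above the limit 4 were higher with C646, PFKFB4 (677 and 1484), BNIP3 (1650 and 3031), ADM (2721 and 4780) and HILPDA (589 and 886), and 0 with ICG-001. The median was -0.33, and VEGFA was at 245 and 177. The core letters of the hypoxia response element, ACGTG, were in 21.4% of all promoters and 24.9% of all genes, in 11 of 17 hypoxia target genes with a promoter in the table and in 12 of 18 glycolytic genes. Among members past 1.5-fold they were in 1 of 3 and 6 of 7.

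Genes that respond to ERK signalling were higher with ICG-001 in 8 of 15 cases and with C646 in 0, with a median of 0.60. The phosphatase DUSP5 was at 6747 with ICG-001, 1926 with C646 and 2338 with DMSO. EREG, a ligand of the EGF receptor, was at 1555, 507 and 906, and EGR1, an immediate-early factor, at 1738, 616 and 1361. For EGR1 the DMSO column was closer to ICG-001, and for EREG it lay between the drugs. The receptor EPHA2 was at 614, 235 and 472, and IER3 at 14082, 5688 and 5901. PHLDA1, ETV5 and SPRY4 were at log2 ratios of 0.90, 0.78 and 0.60, and DUSP6 was within 1.5-fold at 0.55. Of 10 AP-1 family genes above the limit JUN and FOSL1 were higher with ICG-001, and FOS, FOSB and JUNB were within 1.5-fold.

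Other stress and survival lists held a few members each. Of 23 p53 targets above the limit 3 were higher with ICG-001, GADD45A (2221 and 692), the death receptor TNFRSF10B (1505 and 587) and CDKN1A, and 0 with C646, with a median of 0.17. PPM1D and CCNG1 had log2 ratios of -0.39 and -0.33. In the BCL2 family 4 of 13 were higher with ICG-001, and they included the survival genes BCL2L1 (2254 with ICG-001, 1109 with C646 and 1894 with DMSO) and BCL2L2 (1270, 744 and 896) as well as the death genes PMAIP1 (1719, 697 and 721) and BIK (771, 428 and 430). The survival and death members past 1.5-fold thus stood on the same side. Of 8 death members above the limit, 5 had a log2 ratio above 0 and 3 below, while all 5 survival members were above 0. Of 18 NRF2 targets above the limit, FTH1, the ferritin heavy chain (3364 and 1588), SRXN1 (2117 and 1105) and TXNRD1 (2443 and 1403) were higher with ICG-001 and the transporter ABCC2 (335 and 697) with C646, with a median of -0.04. Metallothioneins, which bind zinc, were higher with ICG-001 in 4 of 6 cases, MT1G (893 and 410), MT1X (3332 and 1822), MT1A (16971 and 9974) and MT2A (16827 and 10100), but their sequences are so alike that probes may read more than 1 gene.

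Large housekeeping sets were close to a ratio of 1. Of 73 genes of oxidative phosphorylation above the limit 1, SDHA, was past 1.5-fold, at 627 with ICG-001 and 1106 with C646, and the median was -0.10. Of 76 ribosomal protein genes 1, RPL37, was past it, at 447 and 286, and the median was 0.04. Interferon-stimulated genes had 1 of 26 higher with ICG-001, ISG20 (751 and 353), which is close to the 3.47% of all rows kept. The 3 higher with C646, beside 2.84% of all rows kept, were UBE2L6, HERC5 and IFI6, and the median was -0.11. Of 12 NF-kB targets LCN2 alone was past 1.5-fold. In the intestinal list 13 of 36 genes were above the limit, and GCNT3, a mucin glycosylation enzyme (371 and 176), S100P (236 with ICG-001, under the limit with C646), the factor KLF4 (761 and 440) and LCN2 were higher with ICG-001, while CA2 was higher with C646.

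**Figure D3:**
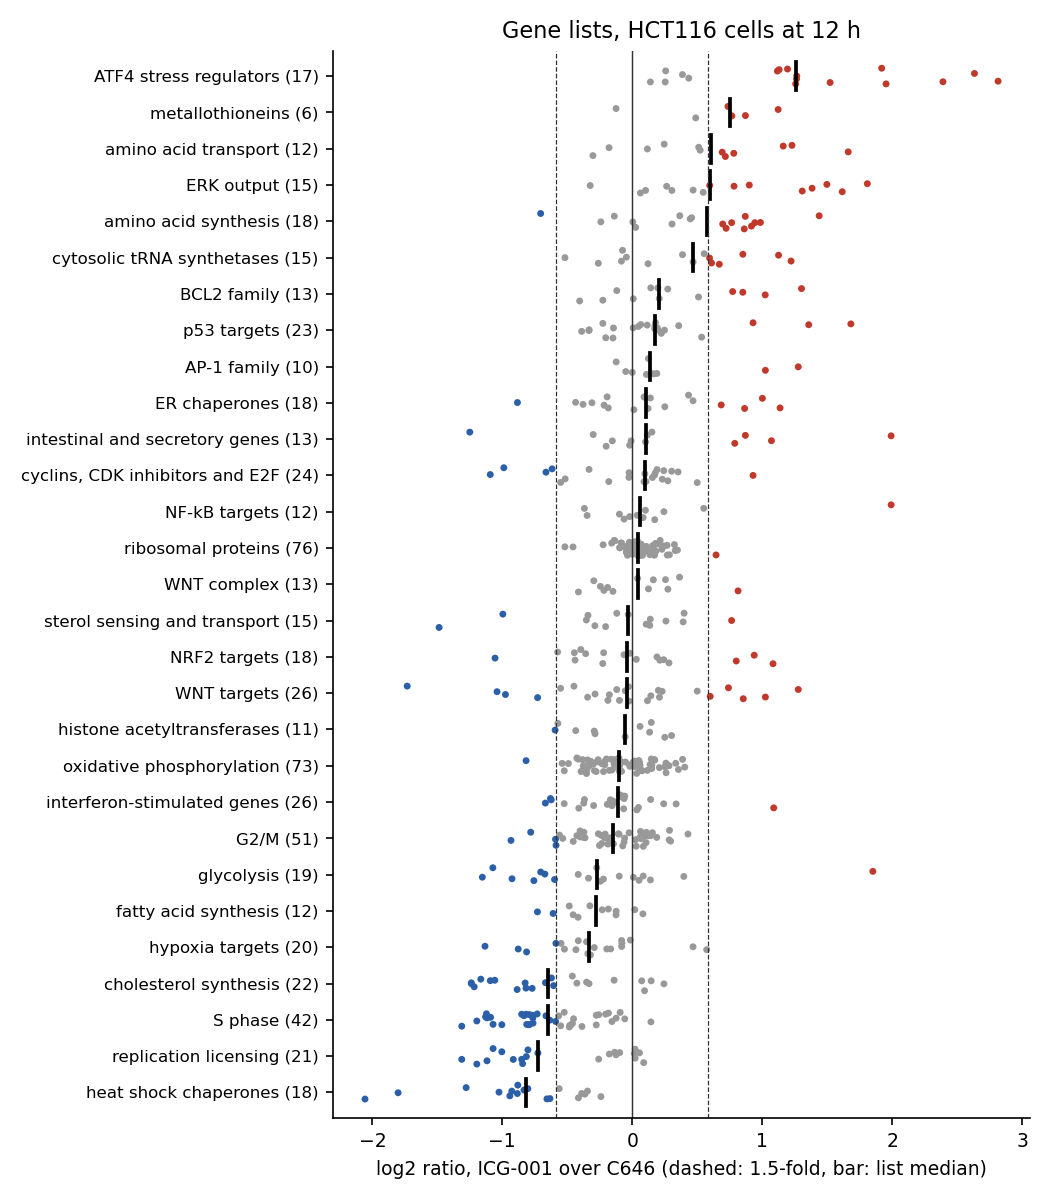
Log2 ratio of ICG-001 over C646 (x axis) for each gene above the limit in 29 gene lists (rows, with the number of genes in parentheses), HCT116 cells at 12 h. Red and blue points are past 1.5-fold (dashed lines), black bars are list medians, which run from -0.82 for heat shock chaperones to 1.26 for ATF4 stress regulators; vertical scatter of the points has no meaning.

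The ratio does not say which drug moved, so the DMSO column was set beside it. Both drugs were divided by the same DMSO column, and these ratios therefore share its errors. Of the 589 rows higher with ICG-001, 364 were at least 1.5-fold from DMSO with ICG-001 alone, or 61.8%, and 37 with C646 alone, or 6.28%. Both drugs were that far from DMSO on opposite sides in 6 rows and on the same side in 10, and neither was in 172. Of the 482 rows higher with C646, the share with ICG-001 alone away from DMSO was 53.1%, 256 rows, and the share with C646 alone away was 8.71%, 42 rows. Both drugs were away on opposite sides in 1 row and on the same side in 20, and neither was in 163. DMSO was nearer to C646 than to ICG-001 in 84.0% of the rows higher with ICG-001 and in 76.6% of the rows higher with C646. In GDF15 the drugs lay on opposite sides of DMSO, with a log2 ratio over DMSO of 1.75 with ICG-001 and -1.07 with C646. By list, the median log2 ratio over DMSO was 1.11 with ICG-001 and -0.12 with C646 for the ATF4 regulators. For cholesterol synthesis it was -0.76 and -0.01, for S phase genes -0.43 and 0.18, and for heat shock chaperones -0.65 and 0.17. The ERK genes were less one-sided, at 0.35 with ICG-001 and -0.28 with C646. For the ERK genes other than phosphatases and feedback genes it was 0.38 and -0.43, with C646 farther from DMSO.

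**Figure D4:**
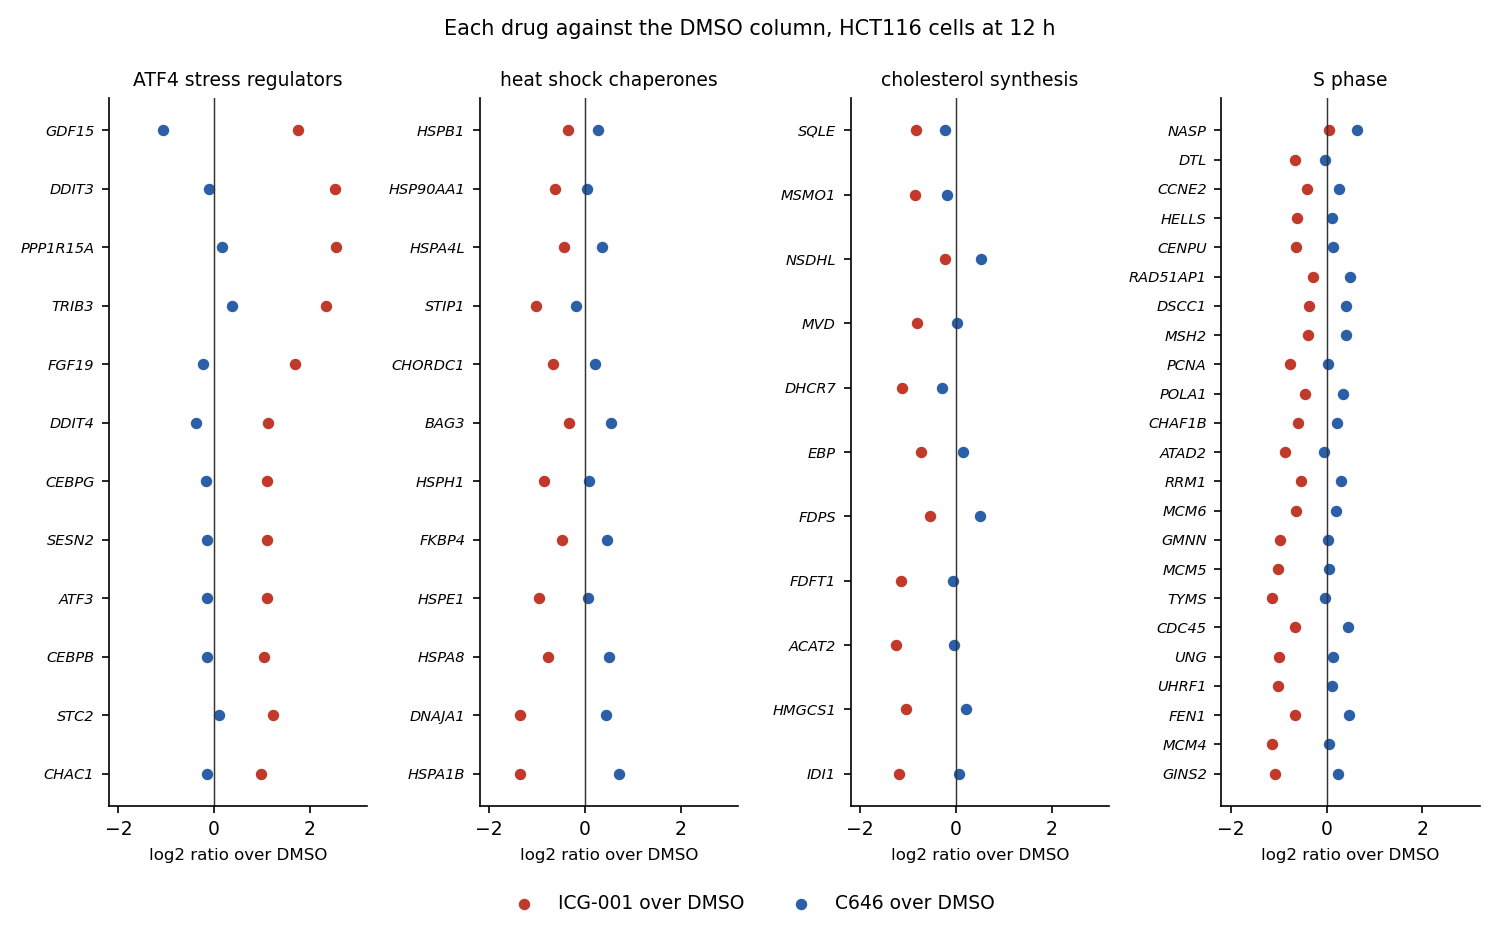
Log2 ratio over the DMSO column (x axis) with ICG-001 (red) and C646 (blue) for members of 4 gene lists that were at least 1.5-fold apart between the drugs, HCT116 cells at 12 h; each point is 1 gene and both ratios use the same DMSO column. The red points lie farther from 0 in most genes, and GDF15 and the heat shock gene HSPA1B have the drugs on opposite sides.

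The same ratio was then read in HCT116 cells at 96 h and in PANC1 cells at 12 h, which use other columns. At 96 h, 1114 of 17026 rows were at least 1.5-fold apart (6.54%), with 3.25% higher with ICG-001 and 3.29% higher with C646. In PANC1 cells it was 442 of 17658 rows (2.50%), with 1.57% higher with ICG-001 and 0.929% higher with C646. Over 15611 rows kept at both times, Pearson's r between the 12 h and 96 h ratios in HCT116 cells was 0.45 and Spearman's rho was 0.38. Over 15220 rows kept in both lines at 12 h they were 0.48 and 0.43. These describe likeness across genes, which are not independent replicates. Of the 1071 rows past 1.5-fold, 81.7% had the same sign at 96 h, and of the 997 also kept in PANC1 cells 85.8% had the same sign there. Past 1.5-fold in the same direction were 353 rows at 96 h and 140 in PANC1 cells. Opposite and past 1.5-fold were 30 rows and 7 rows.

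List medians are given side by side for the 3 comparisons, and differences between comparisons were not tested. For ATF4 regulators the median was 1.26 in HCT116 cells at 12 h, 0.95 at 96 h and 0.89 in PANC1 cells. For cholesterol synthesis it was -0.64, -0.59 and -0.09. INSIG1 was at -1.49, -2.32 and 0.03, and IDI1 at -1.24, -1.75 and -0.22. The S phase median was -0.65, -0.05 and -0.13, and that of heat shock chaperones was -0.82, -0.05 and -0.22. HSPA1B was at -2.06, 0.14 and -0.80, HSPA8 at -1.28, 0.50 and -0.13, and AXIN2 at -1.73, 0.26 and -0.11. The ATF4 median was thus above 0 in all 3 comparisons, and the replication and chaperone medians were close to 0 at 96 h. Other lists were farther from 0 at 96 h than at 12 h. In the same order, the G2/M median was -0.14, -0.57 and -0.07. That of hypoxia targets was -0.33, -0.80 and -0.04, and that of glycolysis was -0.27, -0.56 and 0.02.

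**Figure D5:**
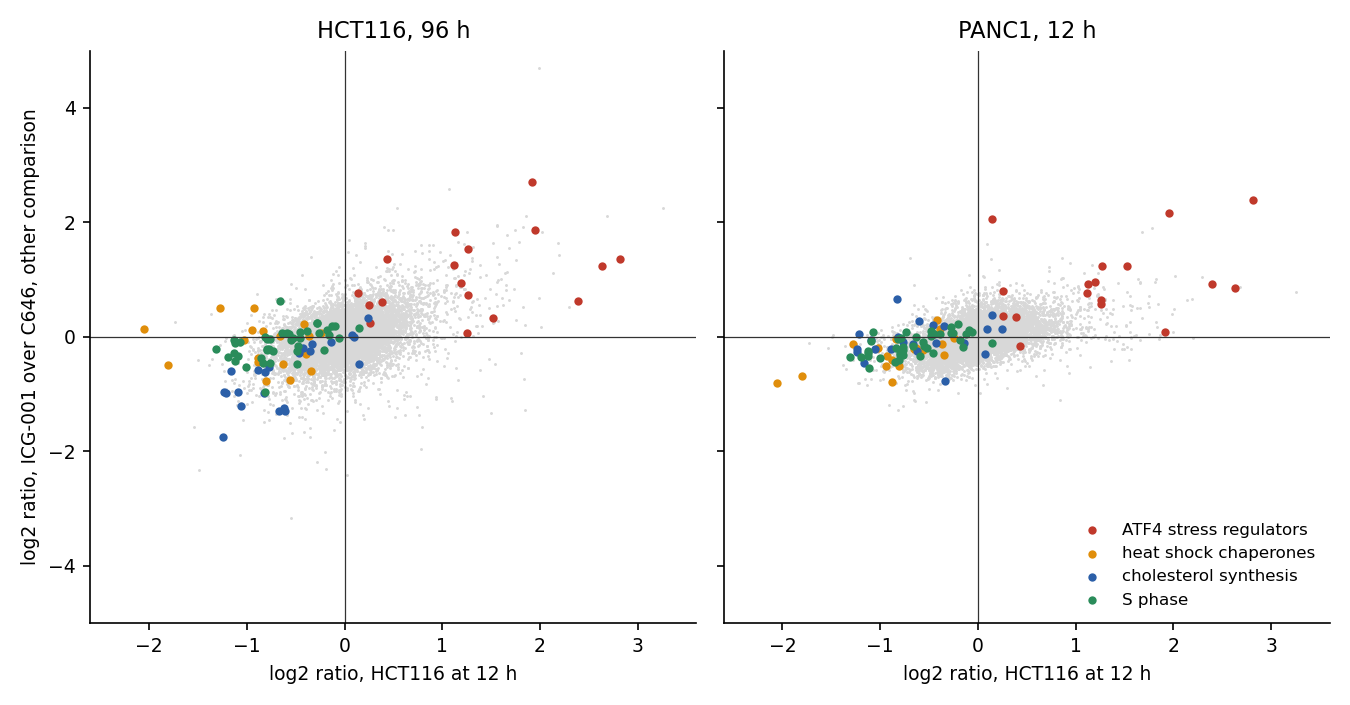
Log2 ratio of ICG-001 over C646 in HCT116 cells at 12 h (x axis) against the same ratio in HCT116 cells at 96 h (left) and PANC1 cells at 12 h (right), with all rows kept in grey and 4 gene lists in colour. ATF4 stress regulators lie in the upper right of both panels, with medians of 0.95 and 0.89 on the y axis. The medians of heat shock chaperones are nearer 0, at -0.05 and -0.22. Single chaperones lie farther out, such as HSPA1B at -0.80 in PANC1 cells.

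Of 14484 rows above the limit in all 3 comparisons, 67 were at least 1.5-fold higher with ICG-001 in each and 14 higher with C646 in each. The 67 included UPP1, GDF15, PLAU, DDIT3, TRIB3 and CEBPG, the gluconeogenic enzyme PCK2 (log2 ratios of 1.78, 1.65 and 1.90 in the order used above), BEX2 (1.68, 1.55 and 1.84) and the growth factor HBEGF (1.66, 1.13 and 0.96). The 14 included the licensing factor CDT1 (-0.82, -0.64 and -0.68), the nuclear receptor NR2F1 (686 with ICG-001 and 1373 with C646 in HCT116 cells at 12 h, then log2 ratios of -1.18 and -0.75), CRABP2, a retinoic acid carrier (-0.77, -1.45 and -1.21), and PFKM (-0.70, -0.98 and -0.62). Conversely, 15 rows were at least 2-fold apart in HCT116 cells at 12 h but within 1.2-fold in both other comparisons. Among them were the kinase MKNK2 (2182 with ICG-001 and 763 with C646), the transcription factor MYB (177 and 410), the tubulin TUBB (3220 and 7064) and the polymerase subunit POLE2 (709 and 1438). PCK2, BEX2, HBEGF, NR2F1, CRABP2, MKNK2, MYB, TUBB and POLE2 were named after their values were seen.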

How the data were processed

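Cells, arrays and groups were taken from the labels. What the authors deposited is linear signal intensity, with 1 row for each gene name. By their methods, GenomeStudio exported the arrays after quantile normalization with background left in, and replicate arrays were averaged. Values of single arrays were not used here, so the number of arrays limits the precision and no SD could be computed.

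Ratios were taken on the log2 scale. The detection limit was the peak of a column's log2 distribution plus 2.33 SD of the values below the peak, and a difference was counted at 1.5-fold. Rows were named through RefSeq (GRCh38.p14): of the rows kept, 10399 matched a current symbol, 1893 an older symbol and 1158 a gene identifier, and 84 older symbols with several matches and 3457 other names stayed unmatched. The text names the 12 largest ratios and the 4 largest bounds in each direction, CREBBP, EP300, CTNNB1, TCF7L2, list members past 1.5-fold and up to 6 further members per list, a few of which are not reported here. The members and lists were chosen with earlier results of these data known. Python 3.11.15, numpy 2.4.6, pandas 2.3.3, scipy 1.17.1, matplotlib 3.10.9, R 4.3.3 and limma 3.58.1 (normexp) were used, and the counting was tested on simulated data. Alternatives were other thresholds, limits, background correction, centring and normalization.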

Additional observations from a re-analysis of the deposited data

Results flagged for a closer look

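For 6 genes named above the ratio of ICG-001 over C646 was past 1.5-fold in HCT116 cells at 12 h and past it in the opposite direction in another comparison. Each comparison has 1 column per drug, and the difference was not tested. At 96 h in HCT116 cells, SLC2A3, a glucose carrier, was at a log2 ratio of -1.27 against 1.85 at 12 h. The immediate-early factor EGR1 was at -1.32, whereas at 12 h its signal was 2.82-fold higher with ICG-001, and ISG20, an interferon-stimulated nuclease, at -1.06 against 1.09. CCNE2, a cyclin of the G1 to S step, turned the other way, at 0.62 against -0.66. In PANC1 cells at 12 h, the cell cycle inhibitor CDKN1A was at -0.63 against 0.93 in HCT116 cells, and DHCR7, the last enzyme of cholesterol synthesis, at 0.67 against -0.82.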

How the results depend on the processing

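No paired analysis was possible because each group has 1 column. Of the 36 rows named by the size of their ratio or bound or as CREBBP, EP300, CTNNB1 and TCF7L2, none past 1.5-fold changed direction under the alternatives run; the other list members were not recomputed singly. Of the list medians, that of sterol sensing and transport went from -0.03 to 0.11 with rows above the limit in both columns, and that of NRF2 targets from -0.04 to 0.01 with no filter. At a threshold of 1.2-fold, 4791 rows differed (2302 higher with ICG-001 and 2489 with C646), and at 2-fold 216 did (157 and 59). The share of differing rows that was higher with ICG-001 was 55.0% at 1.5-fold, 48.0% at 1.2-fold and 72.7% at 2-fold. With normexp background correction, an offset of 16 and quantile normalization, 2899 rows differed (1470 and 1429), of which 50.7% were higher with ICG-001. Under it the median moved to -0.85 for cholesterol synthesis, 1.56 for ATF4 regulators, -0.84 for S phase and -0.90 for heat shock chaperones. Of the rows higher with ICG-001, the share with that drug alone away from DMSO was 51.2% at 1.2-fold and 66.9% at 2-fold, and the share with C646 alone was 15.9% at 1.2-fold. Of the rows higher with C646, the share with ICG-001 alone away was 45.7% at 1.2-fold, and that with C646 alone was 16.6% at 1.2-fold and 3.39% at 2-fold. A stricter limit, no filter, centring on the median and normalization over all 12 columns left the counts of differing rows within 1.5 times. These alternatives had little room to move the counts. Under the limit in both columns, 0 rows were 1.5-fold apart, the median to centre on was -0.0021, and the arrays were already quantile normalized. The intestinal list's median went from 0.10 to 0.45 with the stricter limit. Dim rows keep background in their ratio, so their differences are understated.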

Other observations

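Noncoding host genes of small nucleolar RNAs were noticed on the ICG-001 side after their values were seen, so no test was run. These genes carry small nucleolar RNAs in their introns, and their spliced products are known substrates of nonsense-mediated decay. Of 18 rows kept for SNHG genes, ZFAS1 and EPB41L4A-AS1, 13 were at least 1.5-fold higher with ICG-001 and 0 higher with C646. Over all rows kept the shares were 3.47% and 2.84%. SNHG5 and EPB41L4A-AS1 gave 2 rows each, all among the 13, so the rows are not all separate genes. The median log2 ratio was 1.23. SNHG32, listed as C6orf48, was at 5526 with ICG-001, 1642 with C646 and 1872 with DMSO. SNHG15, listed as C7orf40, was at 3471, 1102 and 1050. ZFAS1, listed as C20orf199, was at 7830, 2790 and 4463, and SNHG8 at 2027, 658 and 886. The 2 rows of SNHG5 were at log2 ratios of 1.53 and 1.38, and both rows of EPB41L4A-AS1 at 2.01 and 1.85. SNHG4 and SNHG9 were below 0, at -0.34 and -0.06. SNHG1 gave 8227 with ICG-001 against 3700 with C646, a log2 ratio of 1.15, and its ratio elsewhere was 0.08 (HCT116, 96 h) and 0.17 (PANC1, 12 h).

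Some rows for structural RNAs, picked after their values were seen, were also higher with ICG-001 at 12 h. The U1 row RNU1-3 was at 1050 with ICG-001, 364 with C646 and 334 with DMSO, RN7SK at 973, 358 and 434, and the 5S ribosomal RNA row RN5S9 (RNA5S9) at 1451, 492 and 821. The 28S ribosomal RNA row LOC100008589 (RNA28SN5) was at 1733, 623 and 399. Other structural RNAs did not reach 1.5-fold: the 18S row LOC100008588 (RNA18SN5) was at a log2 ratio of 0.48, RNU6-1 at 0.47, RN7SL1 at -0.12 (18321 and 19873) and RNY3 at -0.51. Of 11 rows for small nuclear RNAs 6 were at least 1.5-fold higher with ICG-001 and 0 higher with C646, beside 3.47% and 2.84% of all rows kept. The 6 were the U1 rows RNU1-3, RNU1G2, RNU1A3 and RNU1F1, together with RN7SK and RNU4-2. The U1 copies are near-identical, so their rows are uncertain and may not be separate results. Of 144 rows named for small nucleolar RNAs 4 were higher with ICG-001 and 5 with C646, or 6.25% in all beside 6.30% of all rows kept. Their median was -0.09. Whether a row for a small or structural RNA reads the mature RNA or a longer transcript that holds it was not tested.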
